A study of Homo sapiens with 6 samples.

Results

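The quinone reductase gene NQO1, the aldo-keto reductase genes AKR1B1, AKR1B10, AKR1C1, AKR1C2 and AKR1C3, the carbonyl reductase genes CBR1 and CBR3, the epoxide hydrolase gene EPHX1 and the pirin gene PIR were followed across 6 single-colour arrays of the THP-1 line, which comes from a human monocytic leukaemia. These 10 genes were taken as a named group, and every probe that the platform's probe table assigned to them was read. A probe of a single symbol was found for 9 of the 10 genes, out of 18255 genes named on the array. The exception was AKR1B1, which had no named probe and was not analysed here. The 9 genes had 13 probes of their own, and another 2 probes were assigned to several AKR1C genes at once, out of 31741 probes in all.

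The tested cells were given LC53, a compound, at 5 µM, and 15 min later lipopolysaccharide (LPS), the bacterial outer membrane component that monocytes sense through TLR4, at 50 ng/ml for 8 h. LPS cells had the same LPS for 8 h with no LC53, and resting cells had neither. All groups were THP-1 cells kept in medium of low serum, so the line stands for monocytes only as a leukaemia line does. Each group had 2 arrays, and LC53 was not given without LPS in the samples used here, so its effect and its effect on the LPS response cannot be told apart.

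These enzymes make reactive carbonyl compounds, quinones and epoxides less reactive. NQO1 reduces quinones to hydroquinones, the aldo-keto and carbonyl reductases turn aldehydes and ketones into alcohols with NADPH, and EPHX1 opens epoxides to diols. In human cells many of these genes are known targets of NRF2, a transcription factor that is held down by KEAP1 until electrophiles or oxidants modify KEAP1, and that binds antioxidant response elements in DNA. PIR, an iron-binding nuclear protein, is known both as an NRF2 target and as a cofactor of NF-kB, the factor that LPS activates.

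The core of the antioxidant response element, TGACNNNGC, was searched on both strands of RefSeq promoters (GRCh38.p14), windows of 300 bases that run from 250 bases before a gene's start to 50 after it. Windows were found for 8 member genes, with 12 windows in all, and those of AKR1B10 and CBR3 were not in the table. The core was found in 3 of the 12 windows, those of EPHX1 (1 of its 3), CBR1 and PIR, against 13.3% of all 35116 windows. The matches are printed with 10 bases on either side, 5′ to 3′ on the gene's strand, with the match in capitals, because these are the stretches of the searched windows that hold the core. Sequence outside the windows was not searched, so a gene without a match here may hold the core elsewhere. The EPHX1 match lies on the gene's strand and begins 78 bases before the start, and the printed stretch with its flanks spans chr1:225825266-225825294 (+ strand). The CBR1 match lies on the opposite strand, beginning 159 bases before the start, and its printed stretch spans chr21:36069855-36069883 (+ strand). The PIR match lies on the opposite strand, beginning 26 bases after the start, and its printed stretch spans chrX:15493289-15493317 (- strand). The PIR match also holds TGAGTCA, the heptamer bound by AP-1, which 4.95% of the windows hold on either strand.
EPHX1: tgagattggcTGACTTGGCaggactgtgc
CBR1: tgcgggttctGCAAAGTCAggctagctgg
PIR: gccgcgaagcGCTGAGTCAcggtgaggct
A match is a run of letters and not a measured binding site.

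Median probe intensity lay between 84.4 and 124 on the 6 arrays, a spread of 0.56 on the log2 scale, and 36.0% to 43.0% of probes read under 50 units. A gene was called near background when its highest group mean was under 50. This is a low bar, since 20 measured markers of epithelial, fibroblast, lymphoid, liver and erythroid cells had highest group means of 2.52 to 598, with a median of 105. Their summed level was 2764 and 3093 in LC53 plus LPS cells, 2193 and 2887 in LPS cells, and 2329 and 2574 in resting cells, and its part in the results was not tested. Of them EPCAM, an epithelial marker, read 147 and 174 in LC53 plus LPS cells, 37.5 and 40.4 in LPS cells, and 6.94 and 40.3 in resting cells. KRT14, another epithelial marker, changed less, at 479 and 498, 384 and 469, and 406 and 442 in the same order. PDGFRB, a fibroblast marker, was high with LPS alone, at 1.81 and 1.12, 122 and 128, and 1.98 and 4.03. All 11 measured monocyte markers, among them CD14 and LYZ, had a highest group mean of at least 248. CSF1R, the macrophage growth factor receptor, read 891 and 879 in LC53 plus LPS cells, 2078 and 2651 in LPS cells, and 1851 and 1944 in resting cells. CD14, CD33, CD68, SPI1, CTSS and FCER1G likewise read lower on each LC53 plus LPS array than on either LPS array. ITGAM, MNDA and TYROBP read higher in that comparison, and LYZ overlapped. MNDA read 6788 and 6111, 3834 and 4487, and 9701 and 9792 in the same order, and TYROBP 26027 and 23129, 18375 and 22447, and 21674 and 19841. The part of such differences in the results was not tested. Each of the 6 LPS response genes checked (TNF, IL1B, CCL2, CXCL10, NFKBIA and PTGS2) rose in LPS over resting cells. The NFKBIA probe was at the top of the arrays' range on 4 of the 6 arrays, so the size of its rise cannot be read. In whole cultures, a larger share of expressing cells and more RNA per cell cannot be told apart. Intensities below are given per array in the order of replicates 1 and 2, means carry the SD of 2 arrays, and log2 differences carry their SE.

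The first comparison, LC53 plus LPS against LPS, asked what the compound changed in stimulated cells. PIR, CBR3 and AKR1C1 rose. AKR1B10 was also called higher, but it read near background on every array and lost its call with an offset of 50. These are 4 of the 9 measured genes, 3 of them above background, while 0.882% of all 18255 genes were called higher. The members and the lists below were chosen with earlier results of these data known, so such shares are not independent support. None of the 9 was called lower in limma, nor did any pass at an unadjusted p under 0.05 in that direction, against 2.26% of all genes called lower. The median log2 difference of the 9 genes was 0.84, and that of all genes 0.16. With array medians set equal the 2 medians were 0.72 and 0.03. Called genes were 28.1% higher ones, and 46.4% after quantile normalization. Over all probes 218 were called higher and 616 lower, and without LPS replicate 2 these were 1695 and 623.

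**Figure D1:**
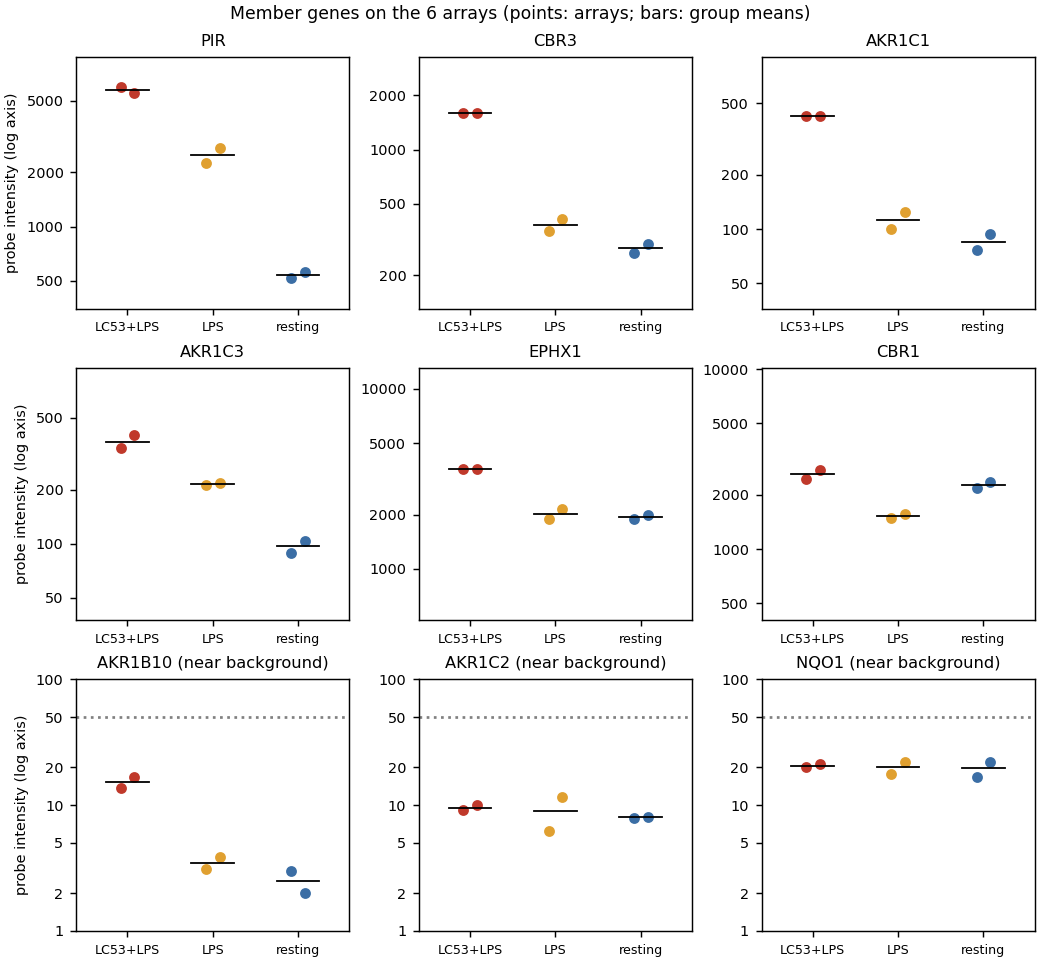
Probe intensity (log axis, each panel with its own range) of the 9 measured genes in LC53 plus LPS, LPS and resting cells, with 1 point per array and a bar at the group mean of 2 arrays. PIR descends from LC53 plus LPS over LPS to resting cells, CBR3 and AKR1C1 stand high with LC53 plus LPS alone, and AKR1B10, AKR1C2 and NQO1 lie under the dotted line at 50 units.

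CBR3, which encodes a carbonyl reductase of quinones and other ketones (probe PH_hs_0009300), read 1594 and 1588 in LC53 plus LPS cells, 351 and 413 in LPS cells, and 267 and 301 in resting cells. Both LC53 plus LPS arrays stood far above the other 4. CBR3 rose 4.18-fold over LPS cells, a log2 difference of 2.06 ± 0.19 (95% interval 1.59 to 2.53, adjusted p = 0.00884). Over resting cells it rose by 2.49 ± 0.19 (adjusted p = 0.00512). LPS and resting arrays did not overlap, with LPS higher, but the difference of 0.43 ± 0.19 did not pass (adjusted p = 0.300). The call against LPS ended without LC53 plus LPS replicate 1 (adjusted p = 0.0779) or 2 (0.0906), when the difference was 2.06 and 2.07, and the call against resting cells ended without either array of these groups (0.0591 to 0.0807).

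CBR1, the neighbour of CBR3 on chromosome 21 and a reductase of prostaglandins and quinones, showed another pattern. Its brighter probe read 2465 and 2759 in LC53 plus LPS cells, 1482 and 1572 in LPS cells, and 2186 and 2348 in resting cells. The 3 groups did not overlap, with LPS cells lowest. The difference from LPS cells was 0.77 ± 0.18 (95% interval 0.33 to 1.22, adjusted p = 0.102), and that of LPS from resting cells was -0.57 ± 0.18 (adjusted p = 0.151), so neither passed. LC53 plus LPS and resting cells differed by 0.20 ± 0.18 (95% interval -0.24 to 0.65). Its other probe read 2216 and 1805 in LC53 plus LPS cells, 1097 and 1524 in LPS cells, and 1420 and 1585 in resting cells, with differences of 0.63 ± 0.24 from LPS cells and -0.21 ± 0.24 for LPS from resting cells. The intervals of CBR3 and CBR1 against LPS cells did not overlap, and the difference between these genes was not itself tested. CBR1 did pass against LPS cells with an offset of 50 (adjusted p = 0.0154), after quantile normalization (0.0382), with dim probes left out (0.0357) and with a variance prior that follows intensity (0.0170). Its lower level in LPS than in resting cells passed with an offset of 50 (0.0244), after quantile normalization (0.0465) and with that prior (0.0382).

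AKR1C1, whose enzyme inactivates progesterone, lies beside AKR1C2 and AKR1C3 on chromosome 10. The brighter of its 2 probes (PH_hs_0062199) read 423 and 427 in LC53 plus LPS cells, 99.999 and 124 in LPS cells, and 76.4 and 93.8 in resting cells. The LC53 plus LPS arrays agreed closely with each other and lay well above the rest, while LPS and resting values were close to the median intensity of the arrays. AKR1C1 rose 3.82-fold over LPS cells, by 1.93 ± 0.21 (95% interval 1.41 to 2.46, adjusted p = 0.0146), and by 2.33 ± 0.21 over resting cells (adjusted p = 0.00804). LPS against resting cells gave 0.40 ± 0.21, which did not pass (adjusted p = 0.392). The call against LPS ended without LC53 plus LPS replicate 1 (0.104) or 2 (0.121), and the call against resting cells without either array of these groups (0.0687 to 0.100). The second probe read 0.992 to 3.03 on all 6 arrays and was at background, and with both probes averaged the difference from LPS cells was 0.87 (adjusted p = 0.265).

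AKR1C3, which encodes an enzyme that reduces prostaglandins and makes testosterone, rose in LPS over resting cells. Its brighter probe (PH_hs_0028988) read 338 and 399 in LC53 plus LPS cells, 211 and 216 in LPS cells, and 89.2 and 104 in resting cells. The groups stood in 3 separate steps. That rise was 2.22-fold, 1.15 ± 0.20 on the log2 scale (adjusted p = 0.0271), and that in LC53 plus LPS over resting cells was 3.82-fold, 1.93 ± 0.20 (adjusted p = 0.0105). LC53 plus LPS exceeded LPS by 0.78 ± 0.20 (95% interval 0.30 to 1.26), which did not pass (adjusted p = 0.117) but passed with an offset of 50 (0.0289) and with dim probes left out (0.0432). The LPS call ended without any single array, at 0.279 and 0.173 without resting replicate 1 and 2, 0.0564 and 0.0516 without LPS replicate 1 and 2, and 0.0698 without either LC53 plus LPS array. The call of LC53 plus LPS against resting cells ended without resting replicate 1 (0.139) or 2 (0.0989) and without LC53 plus LPS replicate 1 (0.0774) or 2 (0.0994). Its other probe read 14.6 to 26.8 and showed overlapping groups, and with both averaged the 2 calls also ended (0.423 for LPS, 0.143 for LC53 plus LPS).

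AKR1C2, whose enzyme reduces dihydrotestosterone, was near background on both probes. The brighter one read 9.06 and 10.0 in LC53 plus LPS cells, 6.25 and 11.5 in LPS cells, and 7.93 and 8.07 in resting cells, so no change could be read from it. AKR1C1 and AKR1C2 are near-identical copies and AKR1C3 is a close relative, and a probe may take up RNA of more than the gene it is named for. A probe assigned to AKR1C3 and AKR1C1 together read 490 and 626 in LC53 plus LPS cells, 245 and 234 in LPS cells, and 113 and 112 in resting cells. It rose by 1.21 ± 0.20 over LPS (adjusted p = 0.0440), and by 1.09 ± 0.20 in LPS over resting cells (adjusted p = 0.0344). The first call ended with any single array left out (0.0516 to 0.293), and so did the second (0.0556 to 0.277). A probe assigned to AKR1C1, AKR1C3 and AKR1C4 read 258 and 211 in LC53 plus LPS cells, 52.1 and 103 in LPS cells, and 53.5 and 54.5 in resting cells. Its difference from LPS cells, 1.67 ± 0.35, did not pass (adjusted p = 0.0777), and the LPS arrays lay far apart. In LC53 plus LPS over resting cells both shared probes rose, the first by 2.30 ± 0.20 (adjusted p = 0.00725) and the second by 2.11 ± 0.35 (adjusted p = 0.0407). These calls ended without either resting or either LC53 plus LPS array, at 0.05296 to 0.0918 for the first and 0.168 to 0.253 for the second. These shared probes cannot be given to 1 gene.

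**Figure D2:**
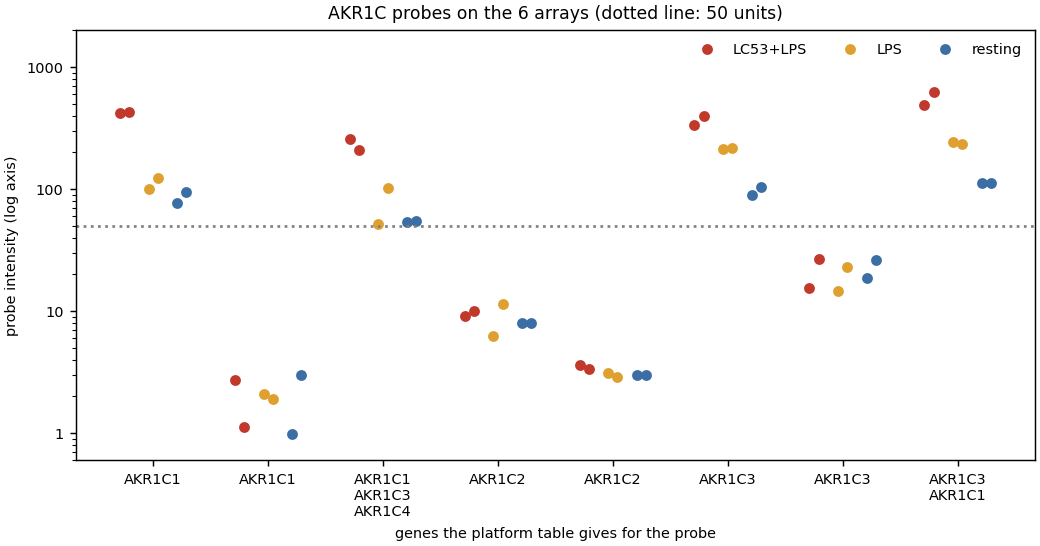
Probe intensity (log axis) of the 8 AKR1C probes, labelled by the genes the platform table gives, with 1 point per array in LC53 plus LPS, LPS and resting cells. On 4 probes the LC53 plus LPS arrays read 211 to 626 and lie above both other groups, and the other 4 probes lie under the dotted line at 50 units on every array; levels of different probes are not comparable.

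AKR1B10, which reduces retinal and fatty aldehydes, was called while near background. It read 13.6 and 16.7 in LC53 plus LPS cells, 3.12 and 3.85 in LPS cells, and 2.97 and 2.02 in resting cells. The LC53 plus LPS arrays were the highest, at levels where most of the 6 readings are a few units. The adjusted p was 0.0211 against LPS and 0.0110 against resting cells, and with an offset of 50, where the log2 differences were 0.28 and 0.31, it was 0.0896 and 0.0764. No size of change is given for readings that are not above background. Against LPS the call also ended without LPS replicate 1 (0.0765) and without LC53 plus LPS replicate 1 (0.0990) or 2 (0.150). Against resting cells it ended without resting replicate 1 (0.0631) or 2 (0.0856) and without LC53 plus LPS replicate 1 (0.0725) or 2 (0.0894).

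NQO1, the gene most often read as a marker of this response, gave no reading above background. Its only probe (PH_hs_0019286) read 19.9 and 21.2 in LC53 plus LPS cells, 17.7 and 22.1 in LPS cells, and 16.9 and 22.2 in resting cells. The groups overlapped, and the lowest 2 readings came from the 2 arrays with the lowest median intensity. The difference was 0.05 ± 0.23 between LC53 plus LPS and LPS cells (95% interval -0.51 to 0.62, adjusted p = 0.919) and 0.03 ± 0.23 between LPS and resting cells (adjusted p = 0.972). Over the alternative settings the first of these ran from -0.16 to 0.22. At this level the probe cannot show whether NQO1 RNA changed.

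EPHX1, the microsomal epoxide hydrolase, read 3593 and 3606 in LC53 plus LPS cells, 1883 and 2143 in LPS cells, and 1882 and 1992 in resting cells. LPS and resting arrays overlapped, and both LC53 plus LPS arrays lay above them. The excess over LPS cells was 0.84 ± 0.18 (95% interval 0.40 to 1.29), or 1.79-fold, and did not pass (adjusted p = 0.0829), nor did that over resting cells, 0.89 ± 0.18 (adjusted p = 0.0699). Against LPS cells it passed in 6 of 15 alternative settings: quantile normalization (0.0164), cyclic loess (0.0230), an offset of 50 (0.0119), dim probes left out (0.0266), the intensity-dependent prior (0.0110) and without LPS replicate 2 (0.0490). LPS differed from resting cells by 0.05 ± 0.18 (95% interval -0.39 to 0.50).

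PIR moved in each comparison. Its probe (PH_hs_0019818) read 5930 and 5549 in LC53 plus LPS cells, 2247 and 2739 in LPS cells, and 516 and 561 in resting cells. The 3 groups formed separate steps. PIR rose 4.61-fold in LPS over resting cells, by 2.21 ± 0.19 (adjusted p = 0.00325), and 10.7-fold in LC53 plus LPS over resting cells, by 3.42 ± 0.19 (adjusted p = 0.00213). Both of these calls held in each of 15 alternative settings, with adjusted p of at most 0.0471 and 0.0337. LC53 plus LPS exceeded LPS 2.31-fold, by 1.21 ± 0.19 (95% interval 0.73 to 1.69, adjusted p = 0.0410), and this call ended with either resting array left out (0.152), with LPS replicate 1 left out (0.0729) and with either LC53 plus LPS array left out (0.245). The comparisons share arrays, so the steps are not independent of each other.

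**Figure D3:**
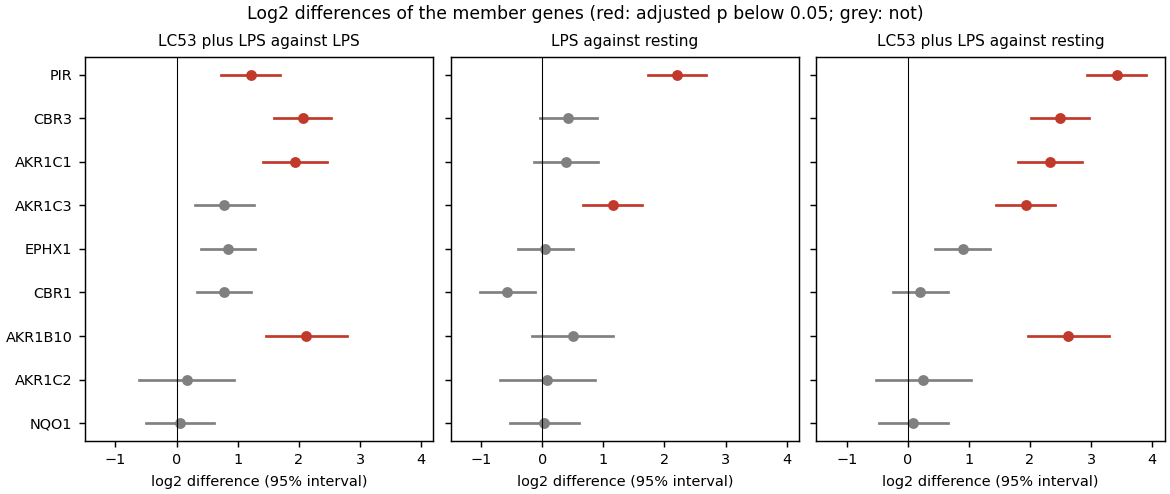
Log2 difference (x axis) with its 95% interval for the 9 measured genes in LC53 plus LPS against LPS, LPS against resting, and LC53 plus LPS against resting cells, with red for an adjusted p below 0.05. PIR is red in all 3 panels, CBR3 and AKR1C1 are red where LC53 was given, and AKR1B10, also red there, is near background.

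In LPS against resting cells, which asked what LPS changed, PIR and AKR1C3 rose, 2 of the 9 measured genes, while 4.46% of all genes were called higher. None fell in limma (1 at an unadjusted p under 0.05, CBR1, which was called lower in 3 of the alternative settings), against 3.1% of all genes. Called genes were 59.0% higher ones, and 46.2% after quantile normalization. In LC53 plus LPS against resting cells PIR, CBR3, AKR1C1 and AKR1C3 rose and AKR1B10 was called near background, 5 of 9 in all, against 2.03% of all genes, and none fell (0 at an unadjusted p under 0.05), against 1.51%. Here called genes were 57.4% higher ones, and 43.6%, 42.4% and 43.9% with median centring, quantile normalization and cyclic loess. Without any single resting or LC53 plus LPS array 1 of the 9, PIR, was called in this last comparison.

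Of 38 further reductase and epoxide hydrolase genes measured, 3 rose in LC53 plus LPS over LPS cells (BLVRB, CRYZ and DHRS7) and none fell in limma (0 at an unadjusted p under 0.05), against 0.882% and 2.26% of all genes, with a median log2 difference of 0.31 against 0.16. Near background were 7 of the 38 genes. In LPS against resting cells none rose (0 at an unadjusted p under 0.05) and 8 fell, against 4.46% and 3.1% of all genes, with a median of -0.29 against -0.07 for all genes. DHRS9, a retinol dehydrogenase, averaged 820 ± 56.8 in LPS cells and 5983 ± 1186 in resting cells, a difference of -2.85 ± 0.23 (adjusted p = 0.00235), and read 924 ± 119 in LC53 plus LPS cells. CRYZ, a quinone reductase, averaged 1303 ± 77.5 in LC53 plus LPS cells, 512 ± 73.6 in LPS cells and 1198 ± 104 in resting cells, and BLVRB, biliverdin reductase B, 6019 ± 256, 2542 ± 165 and 4825 ± 246 in the same order. The soluble epoxide hydrolase gene EPHX2 averaged 84.4 ± 15.2 in LC53 plus LPS cells, 47.8 ± 8.61 in LPS cells and 183 ± 31.2 in resting cells, and fell with LPS (adjusted p = 0.0114). The 3 rises ended without either resting array, LPS replicate 1 or either LC53 plus LPS array (adjusted p up to 0.273), and the fall of CRYZ with LPS with resting replicate 1 (0.173), resting replicate 2 (0.229) or any one LC53 plus LPS array (0.0687) left out. The rise of DHRS7 also ended without LPS replicate 2 (0.05005). The BLVRB fall ended without either resting array (0.369 and 0.280), LPS replicate 1 (0.0624) or either LC53 plus LPS array (0.111), and the EPHX2 fall without resting replicate 1 (0.0663) or 2 (0.105).

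Of 40 other genes of the NRF2 system measured, 8 rose in LC53 plus LPS over LPS cells and none fell in limma (2 at an unadjusted p under 0.05), against 0.882% and 2.26% of all genes. Their median log2 difference was 0.60, and that of all genes 0.16. Near background were 3 of the 40 genes. FTL averaged 66226 in LC53 plus LPS cells, 65618 in LPS cells and 65518 in resting cells, at the top of the arrays' range, where a rise cannot be read. GSTP1 averaged 66228, 51422 and 51864 in the same order. With LC53 plus LPS it stood at that top, so its uncalled difference of 0.36 from LPS cells may be cut short. With median centring, quantile normalization, cyclic loess or the intensity-dependent prior 2 of the 40 genes were called lower, and 1 with an offset of 50. In LPS against resting cells 10 rose and 1 fell, against 4.46% and 3.1% of all genes, with a median of 0.27 against -0.07. In LC53 plus LPS against resting cells 16 rose and none fell (1 at an unadjusted p under 0.05), against 2.03% and 1.51%, with a median of 1.09 against 0.10. OSGIN1, an oxidative stress-induced growth inhibitor, averaged 5722 ± 265 in LC53 plus LPS cells, 657 ± 83.1 in LPS cells and 190 ± 11.2 in resting cells, and its rise of 3.13 ± 0.19 over LPS cells (adjusted p = 0.00323) held without each array in turn. TRIM16L averaged 1593 ± 96.3, 349 ± 17.7 and 159 ± 8.97 in the same groups, SQSTM1, the autophagy receptor p62 that also binds KEAP1, 3183 ± 393, 782 ± 123 and 203 ± 17.98, and SRXN1, sulfiredoxin, 12182 ± 3939, 2071 ± 606 and 860 ± 166. Their rises over LPS cells ended without LC53 plus LPS replicate 1 or 2, at 0.0653 and 0.0635 for TRIM16L, 0.0979 and 0.0906 for SQSTM1, and 0.120 and 0.0812 for SRXN1, which also ended without either resting array (0.0537) or LPS replicate 1 (0.0806). The gene of NRF2 itself, NFE2L2, named here after its values were seen, averaged 17419 in LC53 plus LPS cells, 28192 in LPS cells and 8441 in resting cells. It rose with LPS (1.73 ± 0.19, adjusted p = 0.00695), a call that ended without resting replicate 1 (0.0926) or 2 (0.0774), and the difference of -0.69 ± 0.19 between LC53 plus LPS and LPS cells did not pass (adjusted p = 0.147). It passed with median centring (0.0408), quantile normalization (0.0133), cyclic loess (0.0136), an offset of 50 (0.0348) and the intensity-dependent prior (0.0218).

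**Figure D4:**
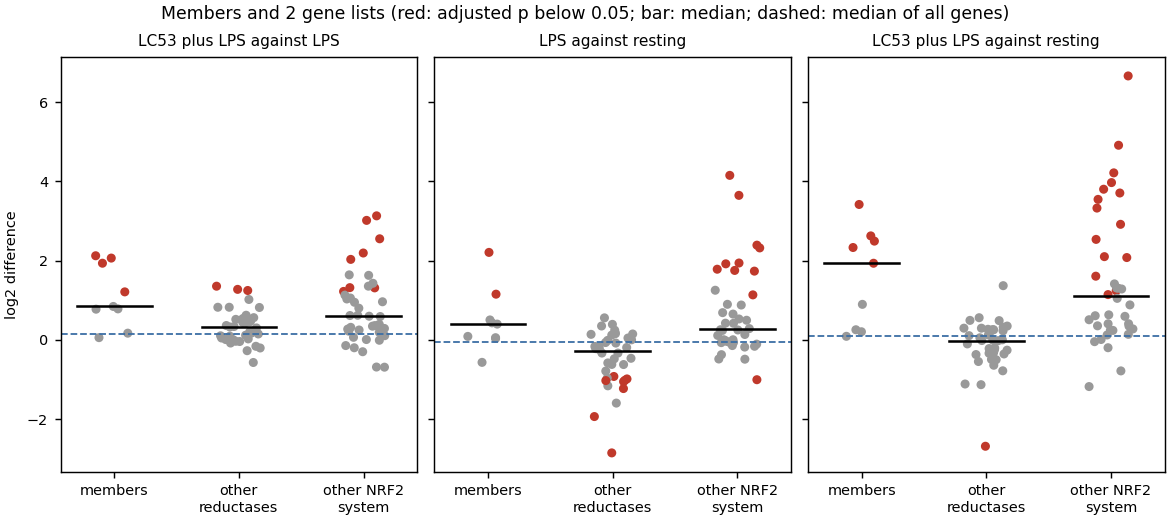
Log2 difference (y axis) of the 9 members, 38 other reductases and epoxide hydrolases, and 40 other NRF2 system genes in the 3 comparisons, with 1 point per gene, red for an adjusted p below 0.05, a bar at the list's median and a dashed line at the median of all genes. The member median of 0.84 and the NRF2 system median of 0.60 lie above the dashed line at 0.16 in LC53 plus LPS against LPS, and in LPS against resting the other reductases hold only calls below 0.

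By correlation of log2 intensity over the 6 arrays, the genes most like AKR1C1 among 2301 were NUMBL (r = 0.9993), CBR3 (0.9989), C22orf42 (0.9982), TLX1 (0.9978) and SNX12 (0.9977). CBR3, a member, was thus the second closest of them. The 6 points form 3 groups on shared arrays, 95 genes reached r of 0.95, and these values describe shape alone. The same measure for NQO1 gave ABCB9 (0.958), ASB9 (0.955), LAIR2 (0.955), REXO1L1P (0.9502) and CD163 (0.947), but NQO1 varied by an SD of 0.17 on the log2 scale at background.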

How the data were processed

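Total RNA was amplified and labelled with Cy5, per the labels' protocols, and read on single-colour arrays. The deposited values were linear probe intensity, each a whole multiple of 1 factor per array within 0.02. The sources used here name no scanner, background correction or normalization. A floor of 1 was set before the log2 step, with no further scaling. limma 3.58.1 (R 4.3.3) was fitted to all 31741 probes and 6 arrays with 1 mean per group, and moderated 2-sided tests were adjusted by Benjamini-Hochberg and called below 0.05. Single symbols were matched for 24658 probes (2177 updated through RefSeq GRCh38.p14), several for 1002 and none for 6081. A gene was counted through its probe with the highest mean. Percentages of called genes use these 18255 probes.

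Members and lists were chosen with earlier results of these data known. In the lists, AKR7L, DHRS4, TRIM16 and GSTM1 had no probe of their own. Named list genes were up to 5 called genes with the largest differences in LC53 plus LPS against LPS or LPS against resting, of which some are described. Likeness used genes with a mean of at least 50 and an SD of at least 0.5. Steps were tested on simulated data. The labels do not tie arrays to separate cultures, so p-values measure the spread between these arrays, which may be technical. With 2 arrays a group, precision is limited by their number. Alternatives were 3 normalizations, an offset of 50, a filter at a mean of 50, averaged probes, an intensity trend, 4-array fits, the replicate number as a block, and each array left out. Without either array of the group not compared, the fit equals that of the 4 arrays, so these 3 settings are 1 test.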

Additional observations from a re-analysis of the deposited data

How the results depend on the processing

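The counts given here are called members, other reductases, NRF2 system genes and all probes. For LC53 plus LPS against LPS, counts of 4, 3, 8 and 834 were 2, 0, 4 and 389 with a replicate block. They were 3, 0, 4 and 305 with the 4 arrays compared. NRF2 system genes and probes numbered 16 and 2416 with median centring, 20 and 3755 with quantile normalization, 19 and 3585 with cyclic loess, and 17 and 1856 without dim probes. Of these NRF2 system genes 2 were called lower with each normalization and with the trend, and 1 with the offset. With an offset of 50, reductases, NRF2 genes and probes were 5, 17 and 2367, and with the intensity trend 5, 19 and 2159.

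For LPS against resting, counts of 2, 8, 11 and 2069 were 1, 2, 9 and 1200 with the 4 arrays compared, and reductases were 3 with a replicate block. Probes numbered 3802, 5157 and 5032 with median centring, quantile normalization and cyclic loess, 3519 with the offset and 3356 with the trend. With averaged probes 1 member was called.

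For LC53 plus LPS against resting, counts of 5, 1, 16 and 941 gave reductases and probes of 4 and 2440 with median centring, 5 and 3494 with quantile normalization, 5 and 3370 with cyclic loess, 4 and 2198 with the offset, 4 and 1925 without dim probes, 3 and 2030 with the trend and 2 and 1555 with the 4 arrays compared. Probes were 481 with a replicate block, and members 3 with averaged probes.

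Leaving out 1 array gave 0 to 5 members, 0 to 4 reductases, 2 to 12 NRF2 genes and 91 to 2318 probes for LC53 plus LPS against LPS. The upper end, without LPS replicate 2, held 1695 probes called higher and 623 lower, against 218 and 616 with all arrays. For LPS against resting it gave 1 to 1, 1 to 9, 4 to 10 and 479 to 2579, and for LC53 plus LPS against resting 1 to 6, 0 to 2, 6 to 21 and 75 to 1555. With LC53 plus LPS replicate 1 or 2 left out no member was called against LPS. A lone array was taken to vary like the other groups. Same-numbered arrays correlated at 0.34, 0.03 and -0.18 in their deviations from group means (resting with LC53 plus LPS, resting with LPS, LPS with LC53 plus LPS), so the numbers were not taken to pair the arrays. NQO1, AKR1C2 and AKR1B10 were limited by signal near background.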
